A study of Mus musculus with 15 samples.

Results

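The response of the wildtype carotid artery to ligation was read from 8 of the 15 arrays of the series, 4 of ligated and 4 of non-ligated wildtype arteries. The arrays were chosen by the group that their titles give. All mice were female, of the strain C57Bl/6J and 21 to 22 weeks old, and those used here are labelled wildtype. The left common carotid artery was tied, and arteries were taken 5 days later. Non-ligated arteries served as controls, and the labels do not say whether they came from the operated mice. The other 7 arrays, 3 of ligated and 4 of non-ligated Has3-deficient arteries, helped to estimate the spread of each gene and served for one comparison. RNA came from whole arteries, from which adherent wound tissue was removed after excision. The labels do not say that each array is a separate animal, and the p-values then reflect only array-to-array spread, which may be in part technical.

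Carotid ligation stops flow in the tied segment and is a common model of neointima formation, the growth of a new inner layer in the vessel wall. As background, the endothelium loses its flow signal, leukocytes enter the wall, smooth muscle cells leave their contractile state and divide, and fibroblasts and smooth muscle cells lay down new matrix. The comparison asks which of these gene programmes differ between tied and untied wildtype arteries on day 5.

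The deposited values are log numbers relative to the median of each probe set over the 15 arrays, so levels are lost and only differences between arrays can be read. Base 2 is read from the size of the values and is not stated in the sources used here. A value of 0 is that median, and a difference of 1 is then a 2-fold change. It also means that the presence of a cell type's markers cannot be judged from their level, only their change. In whole arteries, fewer cells of a type and less RNA per cell cannot be told apart. The root mean square difference between 2 arrays over all genes was 0.201 to 0.23 among ligated arrays, 0.211 to 0.303 among non-ligated arrays and 0.494 to 0.615 between the groups. Genes of tissue other than the vessel wall varied among the non-ligated arrays: non-ligated array 1 was highest in fat genes and non-ligated array 2 in neuronal genes, with values given further on.

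Of 22180 genes tested with limma, 6173 passed at an adjusted p under 0.05, which is 27.8% of them. There were 2925 higher genes (13.2%) and 3248 lower genes (14.6%) in ligated arteries. The falls were more numerous and smaller. A more than 2-fold change was seen for 809 higher genes (3.65%) and 359 lower genes (1.62%). Past 4-fold the balance was one-sided: 167 genes rose by 2 to 3 log2 units, 63 by 3 to 4 and 19 by more than 4. In the other direction 4 genes fell by 2 to 3 log2 units and 1 by more than 3. Of the 6173 calls 4702 (76.2%) held in each of the 8 fits that left out 1 wildtype array. Of the 1168 calls over 2-fold 1127 did. The 4 ligated arrays lay wholly above or below the 4 non-ligated ones in 30.0% of all genes and in 89.5% of the called ones.

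**Figure D1:**
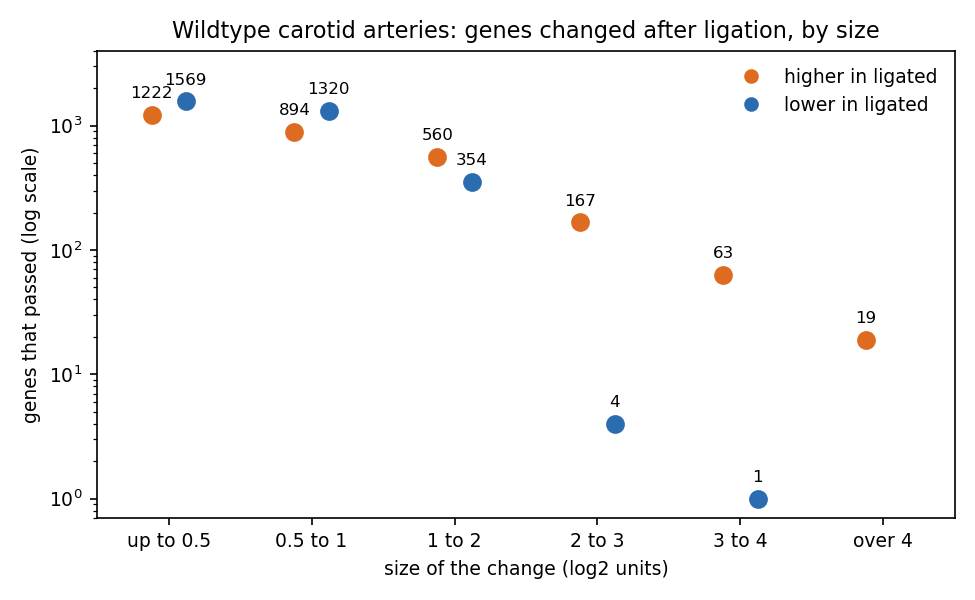
Number of genes that passed (y axis, logarithmic) by size of the change (x axis, log2 units, either direction), for genes higher (orange) and lower (blue) in ligated than in non-ligated wildtype arteries. Below 1 log2 unit lower genes outnumber higher ones, and past 2 log2 units 249 genes rose and 5 fell.

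The largest rises included genes known from activated myeloid cells. Il1b, which encodes the cytokine interleukin 1 beta, had values of -1.45, -2.18, -1.45 and -3.21 in non-ligated arrays 1 to 4 and of 3.81, 3.74, 3.46 and 3.21 in ligated arrays 1 to 4. Saa3, an acute-phase protein made at sites of inflammation, had values of -1.41, -1.18, -1.34 and -1.31 in non-ligated and 4.07, 4.81, 4.28 and 3.89 in ligated arrays. All ligated arrays lay far above all non-ligated ones for both genes, and the differences were 5.63 ± 0.65 and 5.57 ± 0.27 log2 units (± standard error, n = 4 and 4). Below the very top stood Slfn4, an interferon-responsive gene of myeloid cells (4.62 ± 0.35), Il7r, a receptor chain for interleukin 7 (4.5 ± 0.28), and Hdc, the enzyme that makes histamine (4.41 ± 0.30). Csf2rb2, a receptor chain of the interleukin 3 family in mice (3.63 ± 0.15), and Mpeg1, a pore-forming protein of macrophages (4.21 ± 0.19), were in the same range.

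Some smaller changes were measured more precisely. Ifi30, a lysosomal reductase used in antigen processing, had the lowest p of all genes, with values of -0.02, -0.06, 0 and -0.08 in non-ligated and 2.03, 1.82, 1.84 and 1.85 in ligated arrays. Its difference was 1.92 ± 0.05 (adjusted p = 1.18e-10). Pik3r5, a regulatory subunit of the phosphoinositide 3-kinase of leukocytes (2.75 ± 0.08), Myo1f, a myosin of leukocytes (3.06 ± 0.11), and Apbb1ip, an integrin-activating adaptor (1.88 ± 0.07), were among the next. Among falling genes the lowest p belonged to Ndrg2, with values of 0.24, 0.28, 0.24 and 0 in non-ligated and -1.08, -1.03, -0.89 and -0.84 in ligated arrays (difference -1.15 ± 0.07, adjusted p = 5.85e-08). Gucy1a1, a subunit of the nitric oxide receptor (-1.51 ± 0.10), Ppp1r9a, an actin-binding scaffold (-1.13 ± 0.08), and Fermt2, an integrin activator of non-blood cells (-0.92 ± 0.07), came next.

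Klk10, a secreted serine protease that endothelium makes under steady flow, fell most. Its values were 0.99, 0.73, 1.94 and 1.16 in non-ligated and -2.08, -2.60, -2.09 and -1.46 in ligated arrays, a difference of -3.26 ± 0.33 (adjusted p = 5.38e-06). Ptprz1, a receptor phosphatase that binds pleiotrophin, had values of 0.73, 0, 1.11 and 0.47 and -2.42, -2.90, -2.0 and -1.74. Hhip, which binds and dampens hedgehog ligands, had 0, 1.26, 0.54 and 0.97 and -2.71, -1.82, -2.35 and -1.70. Each of the 3 was lower in all ligated arrays than in any non-ligated one, and non-ligated arrays differed among themselves by about 1 log2 unit. Other large falls included Myom1, a protein of the myosin filament (-1.84 ± 0.23), Mylk4, a myosin light chain kinase (-1.83 ± 0.31), Dsp, which links desmosomes to the cytoskeleton (-1.83 ± 0.22), and Npy1r, the receptor of neuropeptide Y (-1.83 ± 0.24). Wfdc1, a secreted protease inhibitor, fell by 1.81 ± 0.14, and Adh7, a dehydrogenase of retinol and ethanol, fell by 1.81 ± 0.20.

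Across the groups of genes examined, those of myeloid cells, fibrillar matrix and dividing cells rose, and those of contraction, vasodilator signalling and adventitial fibroblasts fell. The groups are 75 lists with 1218 measured genes. They are described by their counts and medians, to be read against the 13.2% higher and 14.6% lower genes and a median difference of 0.01 over all genes.

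**Figure D2:**
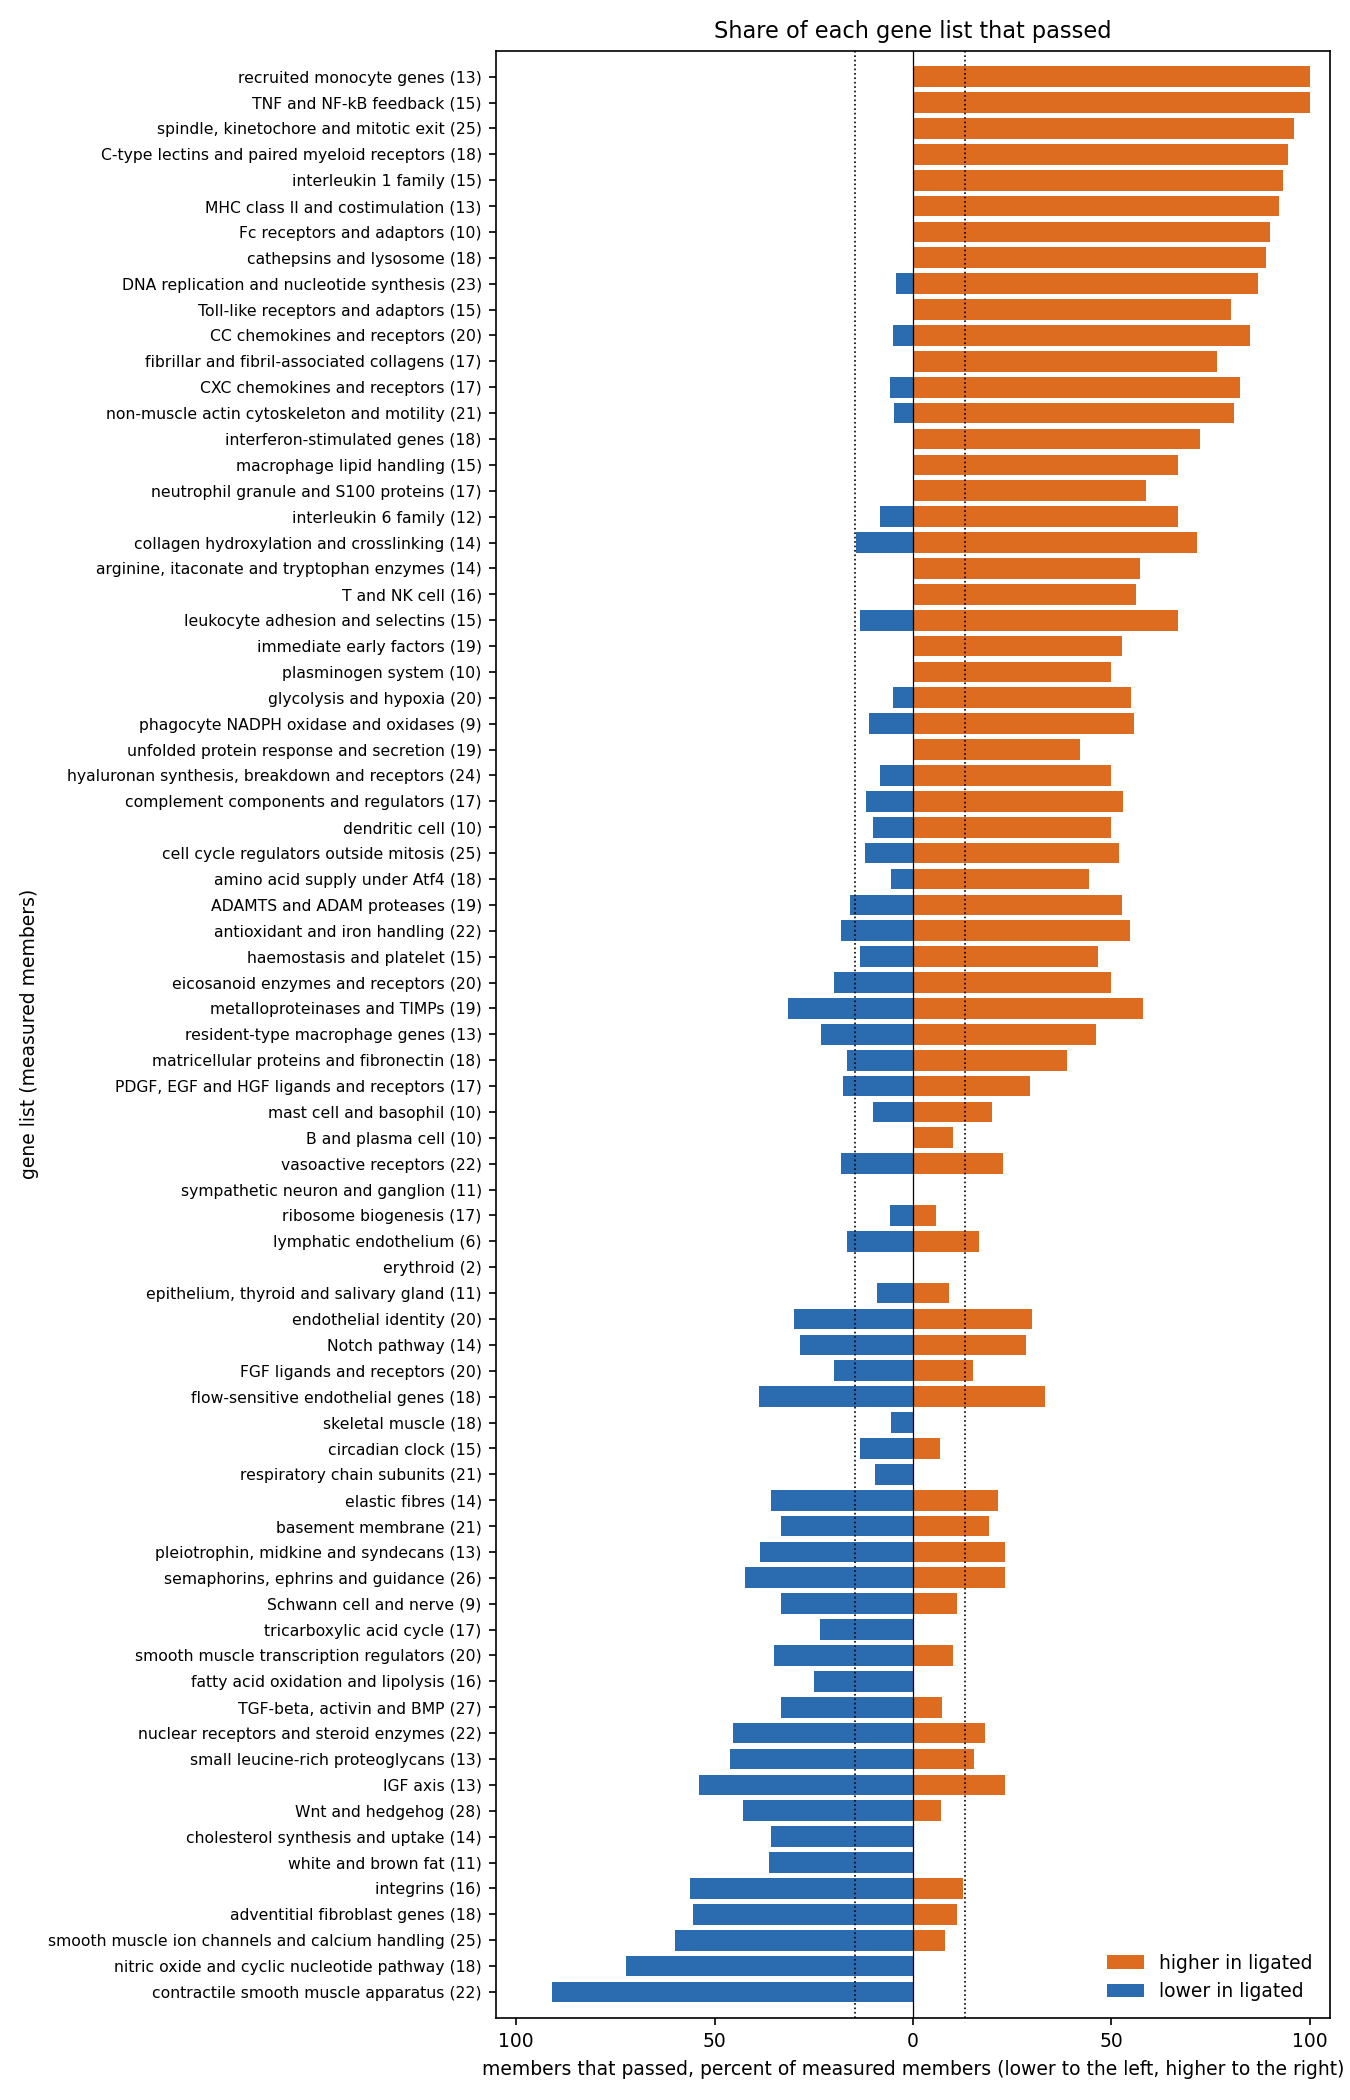
Share of the measured members (x axis, percent) of each of 75 gene lists (y axis) that passed as higher (orange, to the right) or lower (blue, to the left) in ligated than in non-ligated wildtype arteries, ordered by the difference of the shares. Dotted lines mark the shares over all genes, 13.2% higher and 14.6% lower. All 15 measured genes of TNF and NF-kB feedback rose, and 20 of 22 contractile genes fell.

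Chemokines recruit leukocytes by binding receptors on them. Of 17 measured CXC chemokines and receptors 14 rose (median 1.77). Cxcl2, a ligand of the neutrophil receptor Cxcr2, had values of -0.63, -0.73, -0.77 and -1.25 in non-ligated and 4.33, 4.15, 3.49 and 3.08 in ligated arrays (difference 4.61 ± 0.29). Cxcl3, another ligand of that receptor, had -1.13, -1.01, -1.02 and -1.25 and 4.35, 4.75, 3.61 and 3.49 (difference 5.15 ± 0.29). In both genes ligated arrays 1 and 2 were higher than ligated arrays 3 and 4. Cxcr2 itself rose by 3.56 ± 0.28 and Cxcr4, the receptor of Cxcl12, by 3.58 ± 0.37. Ackr3, a scavenger of Cxcl12, fell by 0.44 ± 0.09. Of 20 CC and CX3C chemokines and receptors 17 rose (median 1.74). The monocyte attractants Ccl2 (2.44 ± 0.17) and Ccl7 (2.42 ± 0.19) and the receptors Ccr1 (3.50 ± 0.20) and Ccr2 (2.05 ± 0.19) were among them. Ccl11, which attracts eosinophils, fell by 0.70 ± 0.19.

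Genes of the cytokine pathways that are known to induce chemokines rose in most cases. All 15 measured genes of the TNF and NF-kB list rose (median 1.31). Tnf had values of -0.57, -0.79, -0.79 and -0.73 in non-ligated and 3.43, 3.44, 3.11 and 2.68 in ligated arrays (difference 3.89 ± 0.21). Nfkbie (2.39 ± 0.13) and Nfkbia (1.31 ± 0.12) encode inhibitors that hold NF-kB in the cytoplasm, and Tnfaip3 (1.59 ± 0.14) encodes an enzyme that ends its activation. Tnfrsf1b, a TNF receptor of leukocytes, rose by 2.95 ± 0.14, against 0.66 ± 0.08 for the widely expressed receptor Tnfrsf1a. In the interleukin 1 family 14 of 15 rose. They included the agonists Il1b and Il1f9 (5.17 ± 0.24), but also the antagonist Il1rn (3.23 ± 0.20) and the decoy receptor Il1r2 (4.10 ± 0.28). Of the interleukin 6 family 8 of 12 rose, with Il6 at 2.85 ± 0.19, Osm at 1.70 ± 0.17 and their feedback inhibitor Socs3 at 1.33 ± 0.14. The Socs3 value is the mean of 2 probe sets with differences of 0.62 and 2.04. Lifr, a receptor of that family, fell by 0.54 ± 0.12.

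The start regions of 3 of these genes are shown because they carry the binding sequence that is known for NF-kB. Promoter sequences are from RefSeq (GRCm38.p6), 120 bases that end just before the gene's start, 5′ to 3′ on the gene's strand, with matches to the NF-kB consensus on either strand in capitals. Cxcl2 lies at chr5:90903779-90903898 (plus strand), Cxcl3 at chr5:90785981-90786100 (plus strand) and Nfkbia at chr12:55492648-55492767 (minus strand).
Cxcl2: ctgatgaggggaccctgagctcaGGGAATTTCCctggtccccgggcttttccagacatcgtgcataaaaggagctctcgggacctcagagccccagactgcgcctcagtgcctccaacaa
Cxcl3: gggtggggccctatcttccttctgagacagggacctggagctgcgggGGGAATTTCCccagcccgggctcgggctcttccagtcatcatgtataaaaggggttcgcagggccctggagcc
Nfkbia: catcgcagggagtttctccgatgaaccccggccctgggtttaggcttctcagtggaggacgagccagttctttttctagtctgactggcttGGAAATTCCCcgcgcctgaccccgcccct
The match starts 97 bases before the gene's start in Cxcl2, 73 in Cxcl3 and 29 in Nfkbia, and Cxcl2 and Cxcl3 have the same 10 letters. Within 250 bases before the start, 5 of 13 promoters of the TNF and NF-kB list held a match and 4 of 15 of the CXC list. Among all 16990 measured genes with a RefSeq promoter the share was 5.29%, among those that rose more than 2-fold 10.6% and among those that fell more than 2-fold 5.32%. A match is a run of letters, not a measured binding site.

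Receptors by which myeloid cells sense damage and microbes rose widely. Of 18 C-type lectins and paired receptors 17 rose, with the highest median of the 75 lists (3.05). Clec4n had values of -0.37, -0.19, -0.60 and -0.29 in non-ligated and 3.66, 3.75, 3.57 and 3.53 in ligated arrays, and Clec7a, a receptor of beta-glucans, of -0.14, -0.31, 0 and -0.67 and 3.70, 3.75, 3.57 and 3.54. The 4 ligated arrays lay close together and far above the non-ligated ones for both genes. Of 15 Toll-like receptors and adaptors 12 rose, led by Cd14, a co-receptor for bacterial lipopolysaccharide (3.98 ± 0.27), and Tlr13, a receptor of bacterial ribosomal RNA (3.85 ± 0.21). Tlr3 (-0.03 ± 0.15, adjusted p = 0.926), Tlr4 (0.27 ± 0.09, adjusted p = 0.0505) and Ticam1 (0.10 ± 0.10, adjusted p = 0.548) did not pass. Tlr4 did pass in 5 of the other fits, among them those on wildtype arrays only (adjusted p = 0.0218) and without ligated array 4 (adjusted p = 0.0401). Of 10 Fc receptors and adaptors 9 rose, such as Fcgr1 (3.30 ± 0.23) and Fcgr4 (3.07 ± 0.16). Fcgrt, which recycles antibody in many cell types, was at -0.28 ± 0.10 and did not pass (adjusted p = 0.0596). It passed as lower with array weights, on wildtype arrays only, and without non-ligated array 3 or ligated array 3.

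Leukocytes leave the blood through adhesion molecules, of which 10 of 15 rose and 2 fell. Itgb2, the shared chain of the leukocyte integrins, had values of 0, -0.56, -0.80 and -0.86 in non-ligated and 3.40, 3.23, 2.93 and 3.14 in ligated arrays (difference 3.73 ± 0.24). Its partner chains Itgam (3.62 ± 0.24) and Itgax (3.42 ± 0.18) and the selectin ligand Selplg (2.45 ± 0.17) rose with it. On the endothelial side the inducible ligand Icam1 rose by 0.85 ± 0.15, and the constitutive Icam2 (-0.72 ± 0.13) fell.

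Neutrophil genes did not rise as one. Of 17 measured genes 10 rose, among them the granule protein gene Lcn2. S100a8, a calcium-binding protein that fills the cytoplasm of mature neutrophils, had values of -0.99, -1.62, -0.33 and -1.29 in non-ligated and 3.43, 3.03, 3.07 and 2.48 in ligated arrays (difference 4.06 ± 0.31). Csf3r, the receptor of the neutrophil growth factor G-CSF, had -0.90, -1.04, 0 and -1.26 and 3.56, 3.26, 3.02 and 2.59 (difference 3.91 ± 0.28). Non-ligated array 3 stood above the other non-ligated arrays in both genes, and every ligated array stood above it. The 7 members that did not pass are granule proteins made by precursors in the bone marrow: Mpo (0.02 ± 0.08), Elane (0.07 ± 0.08), Prtn3 (0.14 ± 0.09), Ctsg (0.04 ± 0.06), Ltf (0.13 ± 0.19), Camp (-0.02 ± 0.06) and Ngp (0.03 ± 0.11). Their adjusted p values were 0.919, 0.586, 0.319, 0.716, 0.711, 0.881 and 0.873. Whether these 7 genes were detected at all cannot be read from the centred values.

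Genes of recruited monocytes and of resident-type macrophages differed in their counts. All 13 measured genes of recruited monocytes rose (median 2.04). Chil3, a chitinase-like protein, had values of -0.86, -0.86, -0.65 and -0.81 in non-ligated and 2.73, 1.86, 2.15 and 2.11 in ligated arrays (difference 3.00 ± 0.25), and F10, coagulation factor X, had -0.50, -0.45, -0.94 and -0.69 and 2.47, 1.77, 1.62 and 2.26 (difference 2.68 ± 0.22). Of 13 resident-type genes 6 rose and 3 fell (median 0.12). Pf4, a chemokine of platelets and macrophages, rose most of these (2.28 ± 0.20). Mrc1, Maf and F13a1 of the same list passed as higher too. Cbr2, a carbonyl reductase, fell in all ligated arrays, from 0.25, 0.32, 0.35 and 0.44 in non-ligated to -0.36, -0.34, -0.46 and -0.36 in ligated arrays (difference -0.72 ± 0.06). Lyve1, the hyaluronan receptor of these macrophages and of lymphatic vessels, was at -0.73 ± 0.25 (adjusted p = 0.046), with overlapping groups, and kept its call in 2 of the 8 fits that left out 1 array. Cd163 (-0.33 ± 0.17) and Vsig4 (0.12 ± 0.21) did not pass.

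Of 14 enzymes of arginine, itaconate and tryptophan metabolism 8 rose and 0 fell, and 5 rose without both non-ligated array 1 and non-ligated array 2. Acod1 makes itaconate and had values of -0.92, -1.93, -2.02 and -2.07 in non-ligated and 4.08, 3.66, 3.74 and 2.91 in ligated arrays (difference 5.33 ± 0.44). Arg1 (4.57 ± 0.37) and Nos2 (1.73 ± 0.23) both use arginine, to make ornithine and nitric oxide respectively, and both rose. The tryptophan-degrading enzyme Ido1 (0.09 ± 0.10, adjusted p = 0.562) did not pass. Of 9 oxidase genes the 5 that rose are parts or partners of the phagocyte oxidase, such as Cybb (3.22 ± 0.26) and Ncf1 (2.82 ± 0.15). Nox4, the oxidase of vessel wall cells, fell in all ligated arrays, from 0.41, 0.76, 0.73 and 0.66 to -0.97, -0.47, -0.56 and -0.18 (difference -1.19 ± 0.16). Of 15 genes of lipid handling 10 rose, with Olr1, a receptor of oxidised lipoprotein (3.89 ± 0.16), Msr1, a scavenger receptor (3.37 ± 0.18), and Trem2, a lipid-sensing receptor (3.16 ± 0.12). Cholesterol exporters rose too (Abcg1 2.34 ± 0.21, Abca1 1.86 ± 0.13). Of 18 lysosomal genes 16 rose, with 3.43 ± 0.30 for the protease cathepsin S (Ctss), 1.69 ± 0.09 for the protease legumain (Lgmn) and 0.44 ± 0.07 for the membrane protein Lamp2.

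Genes of antigen presentation rose, and those of lymphocytes did so in part. Of 13 genes of MHC class II and costimulation 12 rose, among them the costimulator Cd80 (3.16 ± 0.20), the inhibitory ligand Cd274 (2.08 ± 0.26) and H2-Ab1 (2.03 ± 0.22). The T cell receptor component Cd3e was at 0.66 ± 0.28 (adjusted p = 0.1) and did not pass, with values of -1.15, -0.83, 0 and -0.62 in non-ligated and -0.42, 0.06, 0.36 and 0.03 in ligated arrays. Non-ligated array 3 was the highest of its group, and without it Cd3e passed (adjusted p = 0.0282). Of 16 T and NK cell genes 9 rose, and 5 did without both non-ligated array 1 and non-ligated array 2. They included the cytotoxic cell genes Ncr1 (0.58 ± 0.10) and Gzma (0.50 ± 0.12), while the T cell receptor components Cd3d (0.22 ± 0.09) and Cd3g (0.44 ± 0.20) did not pass. Of 10 genes of B and plasma cells 1 passed, Cd22 (1.14 ± 0.15), an inhibitory receptor. Without non-ligated array 3 or ligated array 2 the count was 2. Interferon-stimulated genes rose in 13 of 18 (median 0.83). Zbp1, a sensor of nucleic acids, had values of 1.40, 1.55, 2.44 and 1.20 in ligated arrays 1 to 4 and Irf7, a transcription factor of the interferon response, of 1.0, 0.80, 1.82 and 1.11. Cxcl10 had 0.70, 0.66, 2.5 and 1.04. Ligated array 3 was highest in these 3 genes, and the mean of the interferon list was 1.17 in that array against 0.39 to 0.46 in the other ligated arrays.

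Of 17 complement genes 9 rose and 2 fell. Receptors of the cleaved peptides rose (C3ar1 3.11 ± 0.18, C5ar1 2.25 ± 0.15), as did the chains of the recognition protein C1q (C1qb 1.83 ± 0.20). C7, a part of the membrane attack complex, fell from 1.24, 1.37, 1.31 and 1.08 in non-ligated to -1.06, -0.73, -1.05 and -0.75 in ligated arrays (difference -2.15 ± 0.25). Cd59a, which blocks that complex, fell by 0.82 ± 0.11. In haemostasis the factor VII gene F7 rose by 3.33 ± 0.18. Its cofactor, tissue factor (F3), fell by 1.02 ± 0.12, and thrombomodulin (Thbd), an anticoagulant receptor of endothelium, fell by 0.98 ± 0.09. Of 20 eicosanoid genes 10 rose and 4 fell. The higher ones included the inducible cyclooxygenase Ptgs2 (2.23 ± 0.33) and the thromboxane synthase Tbxas1 (1.54 ± 0.11). Prostacyclin synthase (Ptgis), whose product relaxes vessels, fell by 0.97 ± 0.22.

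**Figure D3:**
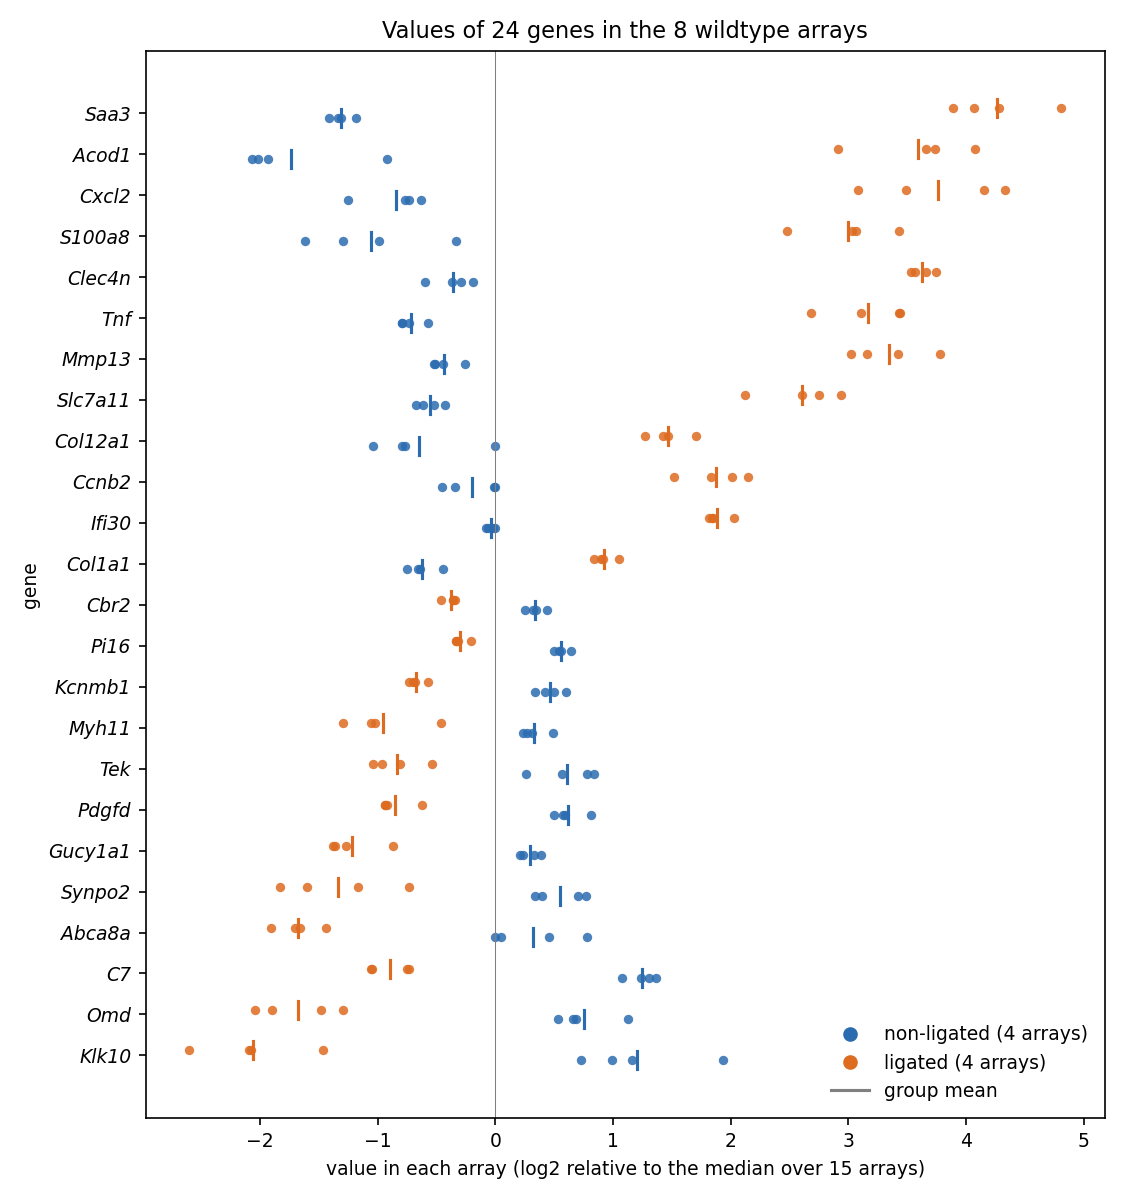
Values in each of the 8 wildtype arrays (x axis, log2 relative to the probe set's median over 15 arrays) of 24 genes named in the text (y axis), non-ligated as blue and ligated as orange points, 4 of each, with a bar at each group's mean. The 24 genes were picked from those whose groups do not overlap, which are 30.0% of all genes. Of the 24, 12 rise, up to Saa3 at the top, and 12 fall, down to Klk10. Slc7a11 is the mean of 2 probe sets with differences of 1.28 and 5.05.

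Fibrillar collagens rose while other matrix families went both ways. Of 17 fibrillar and associated collagens 13 rose and none fell (median 0.89). Col1a1 had values of -0.75, -0.64, -0.66 and -0.44 in non-ligated and 0.84, 0.92, 1.05 and 0.90 in ligated arrays (difference 1.55 ± 0.10). Col12a1 had -0.77, 0, -1.04 and -0.79 and 1.47, 1.71, 1.43 and 1.27 (difference 2.12 ± 0.24). Genes of collagen hydroxylation and crosslinking rose in 10 of 14 and fell in 2. P4ha3, a prolyl hydroxylase, rose by 3.34 ± 0.24, against 0.96 ± 0.12 for its relative P4ha1. Lox, which crosslinks collagen and elastin, rose by 0.97 ± 0.13. Pcolce2, an enhancer of procollagen cleavage, fell by 1.41 ± 0.16.

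Basement membrane genes fell more often than they rose, 7 against 4 of 21. The main chain Col4a1 was at 0.14 ± 0.18 (adjusted p = 0.658) and did not pass. The minor chains Col4a3 (-0.89 ± 0.16), Col4a4 (-0.90 ± 0.13) and Col4a6 (-0.87 ± 0.21) fell, as did the laminin chains Lama2 (-0.97 ± 0.14) and Lamb2 (-0.78 ± 0.17). Laminin Lamb1 (1.28 ± 0.20) and the linker nidogen 2 (Nid2, 1.37 ± 0.12) rose. Of 14 elastic fibre genes 5 fell and 3 rose. Elastin (Eln) was at -0.21 ± 0.22 and did not pass. Fibrillin 2 (Fbn2) rose by 1.56 ± 0.14, and Ltbp4 (-1.19 ± 0.20) and Fbln5 (-0.92 ± 0.14), which guide elastic fibre assembly, fell. Of 13 small leucine-rich proteoglycans 6 fell and 2 rose, and the higher count was 1 or 2 when single arrays were left out. Omd (osteomodulin) had values of 0.66, 1.13, 0.69 and 0.53 in non-ligated and -2.04, -1.29, -1.90 and -1.48 in ligated arrays (difference -2.43 ± 0.20), and Ecm2 of 0.30, 0.71, 0.58 and 0.38 and -1.54, -1.14, -1.20 and -0.74 (difference -1.65 ± 0.15). Lum (lumican) rose by 0.69 ± 0.11, and decorin (Dcn) was at -0.19 ± 0.09 and did not pass.

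Among matricellular proteins, which act on cells more than they bear load, Thbs1 (3.56 ± 0.22), Tnc (2.90 ± 0.15) and Ccn4 (1.74 ± 0.16) rose. Ccn3 (-1.25 ± 0.14) and Sparcl1 (-1.0 ± 0.17) fell, and Ccn2 (-0.16 ± 0.18, adjusted p = 0.586) did not pass. Of 19 metalloproteinases and inhibitors 11 rose and 6 fell. Mmp13, a collagenase, had values of -0.44, -0.51, -0.26 and -0.52 in non-ligated and 3.16, 3.78, 3.42 and 3.02 in ligated arrays (difference 3.78 ± 0.16). Mmp12, the elastase of macrophages, had -0.71, -1.53, -2.06 and -2.79 and 3.10, 3.40, 2.76 and 3.35, with a wide spread among non-ligated arrays (difference 4.93 ± 0.54). The inhibitors split: Timp1 rose by 2.86 ± 0.14, and Timp3 (-0.65 ± 0.12), Timp4 (-1.25 ± 0.21) and the membrane inhibitor Reck (-1.14 ± 0.15) fell. Of 19 ADAMTS and ADAM proteases 10 rose and 3 fell. Adam8, a sheddase of leukocytes, had values of -0.31, -0.96, -1.19 and -0.98 in non-ligated and 3.70, 3.31, 3.13 and 3.32 in ligated arrays (difference 4.23 ± 0.28), and Adam33, a gene of mesenchymal cells, fell by 1.30 ± 0.17. Adamts4, which cuts proteoglycans, rose by 1.52 ± 0.16, and Adamts1 (-0.52 ± 0.41, adjusted p = 0.421) did not pass. In the plasminogen system, which dissolves fibrin and activates proteases, 5 of 10 rose: the activator Plau (1.52 ± 0.13), its receptor Plaur (2.20 ± 0.16) and its inhibitor Serpinb2 (3.97 ± 0.26) were among them.

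The 120 bases before the Mmp13 start (chr9:7272394-7272513, plus strand, GRCm38.p6) are shown for the sequence known to bind AP-1 factors (TGACTCA, or TGAGTCA on the other strand), in capitals.
Mmp13: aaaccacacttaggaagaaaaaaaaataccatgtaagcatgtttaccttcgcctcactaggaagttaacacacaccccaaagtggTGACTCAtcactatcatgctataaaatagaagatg
The match starts 35 bases before the gene's start. Within 250 bases, 4.11% of all promoters, 6.76% of those of genes that rose more than 2-fold and 2.28% of those of genes that fell more than 2-fold held such a match. The AP-1 genes Fos (1.76 ± 0.25), Junb (1.59 ± 0.16) and Fosl2 (1.14 ± 0.19) rose, and Jun (0.40 ± 0.16, adjusted p = 0.0794) did not pass, except without non-ligated array 2 (adjusted p = 0.0487) or 4 (adjusted p = 0.0134).

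Hyaluronan is a matrix sugar made by the synthases Has1 to Has3. Of 24 measured genes of its synthesis, breakdown and binding 12 rose. Has2 had values of -0.24, -0.37, 0 and -0.33 in non-ligated and 0.94, 1.26, 0.70 and 1.17 in ligated arrays. Has1 had -0.50, -0.09, -0.25 and -0.48 and 0.02, 1.02, 0 and 0.87, with ligated arrays 2 and 4 near 1 and ligated arrays 1 and 3 near 0. Has3 had 0, -0.08, -0.02 and 0.22 and -0.08, 0.13, 0.58 and 0, with overlapping groups, and did not pass (0.13 ± 0.14). Cemip, a protein of hyaluronan breakdown, rose by 0.64 ± 0.16, and Itih2, a hyaluronan-binding serum protein chain, fell by 0.83 ± 0.10. The other fallen member was Lyve1, so that the count of fallen members dropped from 2 to 1 when any of 6 arrays was left out (non-ligated 1, 2, 3 and ligated 1, 2, 4).

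The contractile apparatus of smooth muscle fell as a group. Of 22 measured genes 20 fell and none rose (median -0.87). Myh11, the smooth muscle myosin heavy chain, had values of 0.24, 0.27, 0.31 and 0.49 in non-ligated and -1.29, -1.06, -1.02 and -0.46 in ligated arrays (difference -1.29 ± 0.16). Synpo2, an actin bundler, had 0.40, 0.34, 0.70 and 0.77 and -1.83, -1.60, -1.17 and -0.73 (difference -1.89 ± 0.21), and Acta2, smooth muscle actin, fell by 0.50 ± 0.07. Ligated array 4 was the least changed in Myh11 and Synpo2, and the mean of the list was -0.34 in that array against -0.73 to -0.70 in the other ligated arrays. Myocd, the co-activator that drives these genes, fell by 1.20 ± 0.24 (adjusted p = 0.00187), while its partner Srf (-0.20 ± 0.15, adjusted p = 0.382) and Klf4, a repressor of the contractile state (-0.21 ± 0.17, adjusted p = 0.45), did not pass. Runx1, a transcription factor of blood and activated mesenchymal cells, rose by 2.22 ± 0.14. Mrtfa, another co-activator of Srf, passed as higher too. The list of smooth muscle transcription regulators had 2 higher genes, and 1 without both non-ligated array 1 and non-ligated array 2. In the same arrays the mean of 5 macrophage markers was 1.65 to 1.87 in ligated and -0.46 to -0.21 in non-ligated arteries. How much of the fall of wall genes goes with added leukocyte RNA was not tested.

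Non-muscle actin genes went the other way. Of 21 measured genes 17 rose, with 0.35 ± 0.09 for beta actin (Actb), 1.75 ± 0.16 for the actin bundler Fscn1 and 2.71 ± 0.22 for its leukocyte counterpart Lcp1. The non-muscle myosin heavy chains split, with Myh9 at 0.87 ± 0.08 and Myh10 at -1.11 ± 0.14. Integrins of the wall fell in 9 of 16, such as Itga8 (-1.05 ± 0.12), Itga9 (-1.26 ± 0.15) and the laminin receptor chain Itga7 (-0.96 ± 0.14). Itga2, a collagen receptor chain, rose by 1.35 ± 0.22. Itga6, a laminin receptor chain, also passed as higher (1.0 ± 0.33, adjusted p = 0.038) and kept that call in 1 of the 8 fits that left out 1 array.

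Genes of vasodilator signalling fell together. Of 18 genes of the nitric oxide and cyclic nucleotide pathway 13 fell and none rose (median -0.91). The subunits of the nitric oxide receptor had values of 0.24, 0.21, 0.39 and 0.33 (Gucy1a1) and 0.11, 0.30, 0.46 and 0.64 (Gucy1b1) in non-ligated arrays, and of -1.38, -1.36, -1.27 and -0.87 and -1.52, -1.19, -1.44 and -0.80 in ligated arrays. The next step, the cyclic GMP dependent kinase Prkg1, fell by 1.28 ± 0.18. Its target Mrvi1 fell by 1.20 ± 0.14 and the endothelial enzyme Nos3 fell by 0.90 ± 0.21, a call that was lost under quantile normalization (adjusted p = 0.0682). Ppp1r14a, an inhibitor of myosin phosphatase that favours contraction, fell by 1.78 ± 0.20. Of 25 channel and calcium genes 15 fell. Kcnmb1, the subunit that tunes the large potassium channel to calcium, fell from 0.42, 0.34, 0.60 and 0.50 to -0.73, -0.68, -0.70 and -0.57 (difference -1.14 ± 0.09). The calcium release channel Ryr2 (-1.32 ± 0.13) and the L-type channel Cacna1c (-0.94 ± 0.15) fell as well. Kcnn4, a potassium channel of leukocytes and dividing smooth muscle, rose by 1.19 ± 0.14, and Orai1, a store-operated calcium channel, by 0.50 ± 0.12.

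Endothelial genes did not move as one. Of 20 measured identity genes 6 rose and 6 fell (median 0.03). The angiopoietin receptor Tek had values of 0.78, 0.57, 0.84 and 0.26 in non-ligated and -0.96, -0.81, -0.54 and -1.04 in ligated arrays (difference -1.45 ± 0.17). Emcn (endomucin) had -0.42, -0.24, -0.76 and -0.68 and 0.80, 1.34, 1.06 and 0.69 (difference 1.5 ± 0.20). Pecam1 (-0.84 ± 0.12) and the phosphatase Ptprb (-1.33 ± 0.12) fell, and Plvap, a protein of fenestrae (1.10 ± 0.17), and Robo4 (1.02 ± 0.19) rose. Among flow-sensitive genes the transcription factor Klf2 was at 0.30 ± 0.21 (adjusted p = 0.368) and did not pass, although Klk10, Thbd and Nos3 fell. The 18 measured genes of that list had 6 higher and 7 lower members. The higher ones included the apelin receptor Aplnr (2.08 ± 0.27), Esm1, a secreted proteoglycan of endothelium (1.35 ± 0.31), and the Notch ligand Dll4 (1.22 ± 0.19). Esm1 was 2.25, 1.04, 0.46 and 0.62 in ligated arrays 1 to 4, so its rise was largest in ligated array 1.

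Adventitial fibroblast genes fell in 10 of 18 (median -0.37). Pi16, a marker of progenitor-like fibroblasts, had values of 0.56, 0.64, 0.54 and 0.50 in non-ligated and -0.33, -0.21, -0.33 and -0.32 in ligated arrays (difference -0.86 ± 0.07). Abca8a, a lipid transporter, had 0.46, 0.78, 0.05 and 0 and -1.91, -1.44, -1.66 and -1.70 (difference -2.0 ± 0.18). Clec3b (-1.04 ± 0.14) and the hedgehog factor Gli1 (-0.83 ± 0.15) fell. In the same list 2 genes rose. Cd248, a surface glycoprotein of stromal cells, rose by 0.50 ± 0.12, and Thy1, a surface marker of fibroblasts and T cells, by 1.01 ± 0.32, a call kept in 3 of the 8 fits that left out 1 array (leaving out any of non-ligated arrays 1, 3 and 4 and ligated arrays 2 and 3 ended it). The defining receptor Pdgfra was at 0.04 ± 0.09 (adjusted p = 0.799) and did not pass.

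Growth signals were mixed. Hgf, a motility factor, had values of -0.39, 0, -0.27 and -0.72 in non-ligated and 1.45, 1.84, 1.39 and 1.19 in ligated arrays (difference 1.81 ± 0.17), and its receptor Met rose by 1.19 ± 0.17. Pdgfb, a mitogen of smooth muscle, rose by 1.27 ± 0.17, while Pdgfd fell from 0.58, 0.50, 0.81 and 0.59 to -0.94, -0.62, -0.94 and -0.92 (difference -1.47 ± 0.14). The receptor Pdgfrb was at -0.24 ± 0.14 and did not pass. Tgfb1 rose by 1.25 ± 0.14 and Tgfb3 fell by 0.90 ± 0.13. Of 27 genes of that family 9 fell and 2 rose. Of 13 genes of the insulin-like growth factor axis 7 fell and 3 rose. Igfbp5 fell by 1.37 ± 0.23 and the clearance receptor Igf2r rose by 1.13 ± 0.06. Hedgehog and Wnt genes fell in 12 of 28, among them the hedgehog receptor Ptch1 (-1.22 ± 0.15), Wnt5a (-1.12 ± 0.14) and the Wnt inhibitor Wif1 (-1.62 ± 0.25). Among secreted semaphorins Sema3d (-1.58 ± 0.19), Sema3c (-1.43 ± 0.17) and Sema3b (-0.91 ± 0.12) fell and Sema3a (0.06 ± 0.07) did not pass, and Sema4d (2.43 ± 0.21) and Sema7a (1.55 ± 0.13), which leukocytes make, rose. Of 14 Notch pathway genes 4 rose and 4 fell, and the higher count was 1 or 2 in each of the 8 fits that left out 1 array and 2 under quantile normalization. The ligand Dll4 rose by 1.22 ± 0.19, while Notch2 (0.36 ± 0.13), Notch4 (0.35 ± 0.12) and Nrarp (0.28 ± 0.10) passed narrowly and kept their calls in 1, 0 and 2 of those fits. Hey2 (-1.36 ± 0.13) and Heyl (-1.26 ± 0.20), targets of Notch in smooth muscle, fell, and the receptor Notch3 was at -0.29 ± 0.19 and did not pass. Of 22 nuclear receptors and steroid enzymes 10 fell and 4 rose, with the thyroid hormone receptor Thrb at -1.18 ± 0.18 and the oestrogen receptor Esr1 at -1.01 ± 0.14, and the vitamin D receptor Vdr rose by 0.93 ± 0.10.

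Genes of mitosis rose almost without exception, most genes of DNA replication rose, and other cell cycle regulators did so in part. Of 25 mitosis genes 24 rose and none fell (median 1.42). Ccnb2, a cyclin of mitotic entry, had values of 0, -0.01, -0.45 and -0.34 in non-ligated and 2.15, 2.01, 1.83 and 1.52 in ligated arrays (difference 2.08 ± 0.14). Top2a, the topoisomerase that untangles chromosomes, had -0.14, -0.11, -0.44 and -0.35 and 1.83, 1.98, 1.80 and 1.67 (difference 2.08 ± 0.10). Ligated array 4 was lowest of the ligated arrays in both genes. Ube2c, which marks cyclins for breakdown, rose by 1.42 ± 0.13, and Cdc20, an activator of the anaphase-promoting complex, by 0.93 ± 0.13. Genes of DNA replication rose by less, in 20 of 23 (median 0.43), with the thymidine kinase Tk1 at 0.99 ± 0.11 and the helicase subunit Mcm5 at 0.75 ± 0.11. In that list 1 gene fell, and leaving out single arrays moved this count between 0 and 2. Of 25 cell cycle regulators outside mitosis 13 rose and 3 fell (median 0.39). Cyclin A2 (Ccna2) rose by 2.06 ± 0.22, and the G1 cyclins split, with Ccnd1 at 0.52 ± 0.13 and Ccnd2 at -0.71 ± 0.17. The inhibitor Cdkn1a rose too (1.37 ± 0.19), and Rbl2, a retinoblastoma relative of resting cells, fell by 0.53 ± 0.08. Ribosome biogenesis, often raised in growing cells, showed 1 higher and 1 lower gene of 17. Leaving out single arrays moved the higher count between 0 and 2.

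The start regions of 4 mitosis genes are shown because genes of this phase are known to share a CCAAT box, bound by NF-Y, and a cell cycle homology region (CHR, TTTGAA). The sequences are from RefSeq (GRCm38.p6), 120 bases that end just before the gene's start, 5′ to 3′ on the gene's strand, with CCAAT or TTTGAA on either strand (read as ATTGG and, for the CHR, as TTCAAA on the other) in capitals. They lie at chr9:70421555-70421674 (Ccnb2, minus strand), chr2:164769809-164769928 (Ube2c, plus strand), chr4:118437344-118437463 (Cdc20, minus strand) and chr11:99024190-99024309 (Top2a, minus strand).
Ccnb2: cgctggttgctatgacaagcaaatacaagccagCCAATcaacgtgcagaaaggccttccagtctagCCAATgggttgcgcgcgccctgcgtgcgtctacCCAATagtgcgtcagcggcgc
Ube2c: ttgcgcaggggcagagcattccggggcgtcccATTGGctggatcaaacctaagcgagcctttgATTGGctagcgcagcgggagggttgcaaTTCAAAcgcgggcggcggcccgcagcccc
Cdc20: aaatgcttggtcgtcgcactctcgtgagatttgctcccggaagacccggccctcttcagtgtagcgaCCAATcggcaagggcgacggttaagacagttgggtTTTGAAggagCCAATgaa
Top2a: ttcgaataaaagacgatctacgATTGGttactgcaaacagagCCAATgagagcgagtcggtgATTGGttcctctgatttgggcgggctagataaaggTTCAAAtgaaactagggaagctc
Ccnb2 holds CCAAT boxes that start 87, 54 and 21 bases before the gene's start, an even spacing, and no CHR in this window. The other 3 hold 1 CHR each, starting 29, 18 and 23 bases before the start in Ube2c, Cdc20 and Top2a. Within 250 bases, 11 of 22 promoters of the mitosis list held at least 2 CCAAT boxes, against 11.6% of all promoters. A CHR was found in 8 of 22, against 14.2%. Over all genes that rose more than 2-fold these shares were 9.82% and 14%.

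Metabolic genes moved both ways, some with a wide spread among arrays of one group. Slc7a11, the cystine importer, had values of -0.52, -0.61, -0.43 and -0.67 in non-ligated and 2.94, 2.75, 2.61 and 2.12 in ligated arrays (difference 3.16 ± 0.16). These are means of 2 probe sets, whose differences were 1.28 and 5.05. The standard error does not cover that gap. The haem-degrading enzyme Hmox1 rose by 3.55 ± 0.18, the iron transporter Slc11a1 by 3.20 ± 0.20 and the lactate exporter Slc16a3 by 2.37 ± 0.25. Vegfa, a growth factor induced by hypoxia, rose by 1.29 ± 0.29. Among the 20 largest falls that the rule for named genes gave, all without overlap between the groups, were 3 enzymes of central metabolism. Malic enzyme (Me1) had values of 1.86, 1.51, 0.67 and 0.49 in non-ligated and -0.99, -1.13, -0.83 and 0.15 in ligated arrays (difference -1.83 ± 0.38), Pcx, pyruvate carboxylase, of 1.70, 0.85, 0.09 and 0.12 and -1.23, -1.63, -1.24 and -0.33 (difference -1.80 ± 0.39), and Acss2, an acetyl-CoA synthetase, of 2.25, 1.04, 0.44 and 0.48 and -0.69, -1.41, -0.80 and -0.02 (difference -1.79 ± 0.41). In all 3 genes non-ligated array 1 was highest and ligated array 4 highest of the ligated arrays, and the calls held in 8 of 8 fits that left out 1 array. Without both non-ligated array 1 and non-ligated array 2 Acss2 did not pass (adjusted p = 0.0557).

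The same arrays differed in fat marker genes. The mean of the 11 measured fat genes was 1.75, 0.45, -0.32 and 0.13 in non-ligated arrays 1 to 4 and -1.5, -1.34, -0.52 and 0.10 in ligated arrays 1 to 4, so that the groups overlap. Of these genes 4 fell, and Adipoq, the hormone of fat cells, did not pass (-0.88 ± 0.43). Without non-ligated array 1, non-ligated array 2, ligated array 1 or ligated array 2, and with the replicate number as a block, 2 fat genes fell. Of 17 genes of the tricarboxylic acid cycle 4 fell, and 1 did without non-ligated array 1 or without ligated array 1. The counts were 2 without non-ligated array 4, ligated array 2 or ligated array 3 and under quantile normalization, and 7 with the replicate number as a block. Of 16 genes of fatty acid oxidation 4 fell, with 1 left without non-ligated array 1, ligated array 1 or ligated array 2, and 2 without ligated array 3 or under quantile normalization. The mean of the cycle genes was 1.04 in non-ligated array 1 and -0.01 to 0.15 in the other non-ligated arrays. The part of fat tissue in these falls was not tested.

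**Figure D4:**
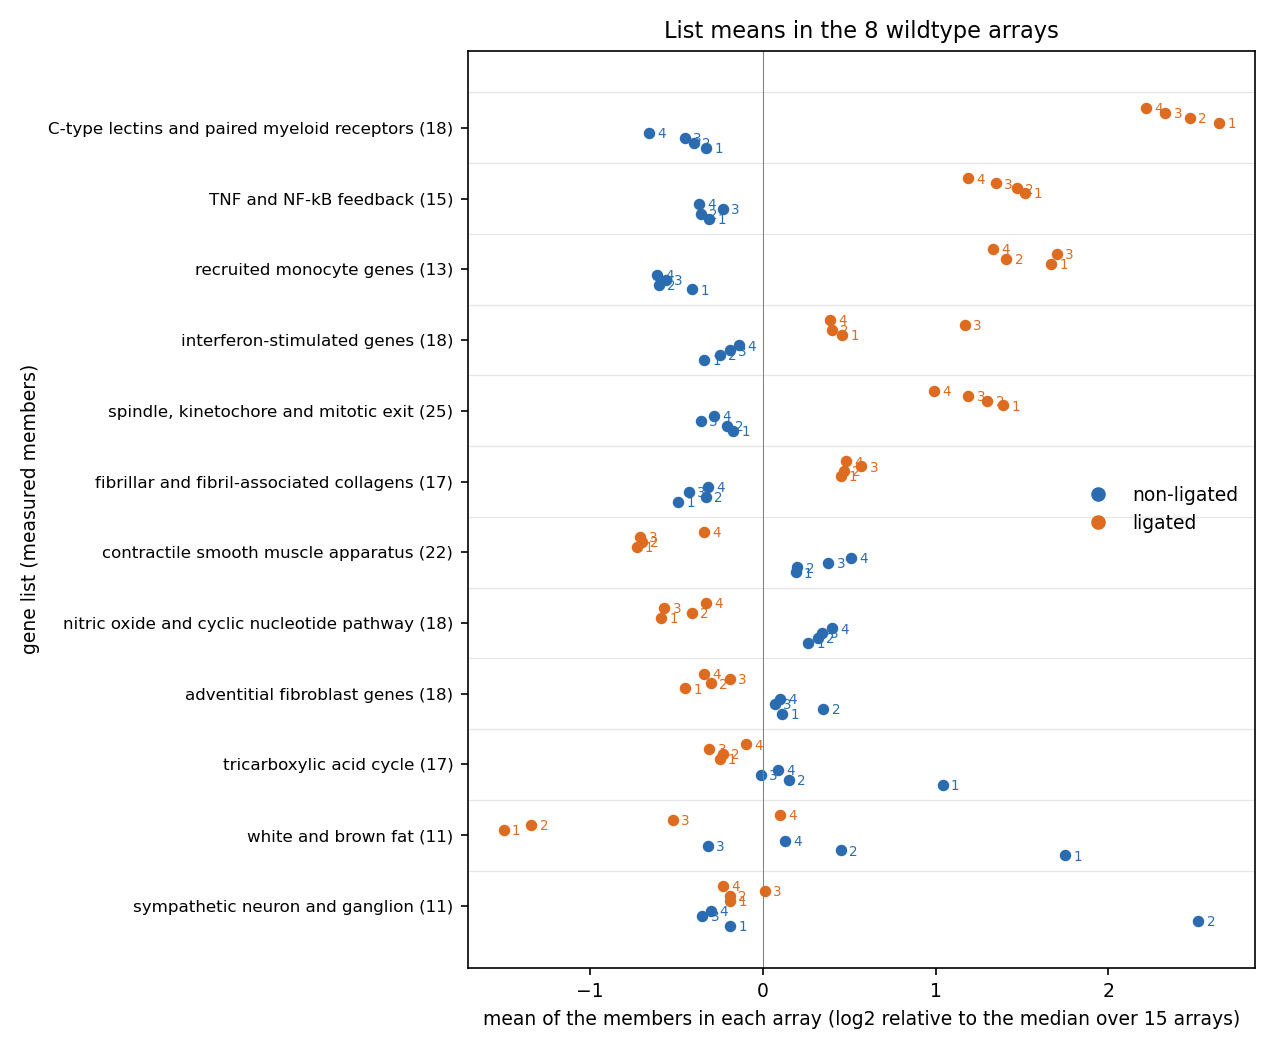
Mean of the measured members of 12 gene lists (rows) in each of the 8 wildtype arrays (x axis, log2 relative to the median over 15 arrays), with non-ligated arrays in blue and ligated arrays in orange, each point labelled with its array number. Non-ligated array 1 stands apart in fat and tricarboxylic acid cycle genes, non-ligated array 2 in neuronal genes, and ligated array 3 in interferon genes.

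Markers of tissues beside the artery differed by tissue. None of the 11 neuronal genes passed, and their mean was 2.52 in non-ligated array 2 and -0.35 to 0.01 in the other 7 arrays. Of 18 skeletal muscle genes 1 fell (Casq1, -1.40 ± 0.19), and the myosins and troponins of the list did not pass. Of 9 Schwann cell and nerve genes 3 fell, among them the adhesion molecule Ncam1 (-1.38 ± 0.14) and the myelin protein Mal (-0.99 ± 0.18), and Egr2, which is also an immediate early gene, rose (1.96 ± 0.14). The defining factor Sox10 (-0.07 ± 0.18) did not pass, and the count of higher genes was 2 with array weights and without non-ligated array 1 or 2. Of 10 mast cell and basophil genes 2 rose and 1 fell. The higher ones were Hdc, which mast cells share with other myeloid cells, and Kit, and the lower one was Gata2. Leaving out single arrays moved the higher count between 1 and 2 and the lower count between 0 and 1. The mast cell proteases Cma1 (0.22 ± 0.32), Mcpt4 (-0.62 ± 0.59) and Tpsb2 (-0.23 ± 0.38) did not pass. Of the lymphatic genes Pdpn rose by 2.38 ± 0.11, and Prox1, the factor that defines lymphatic endothelium, was at -0.11 ± 0.24 and did not pass.

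Of 478 microRNA genes, which this array measures through their precursor or host transcripts and not as mature RNA, 46 were higher and 34 lower, against 13.2% and 14.6% of all genes. Mir143 and Mir145a, neighbours known from contractile smooth muscle, and Mir142, known from blood cells, were picked for mention after their values were seen. Mir145a had values of 0.85, 0.57, 1.27 and 0.61 in non-ligated and -1.02, -1.29, -0.57 and -1.01 in ligated arrays (difference -1.80 ± 0.25), Mir143 fell by 1.59 ± 0.27 and Mir142 rose by 0.90 ± 0.16. A separate limma fit per probe set was adjusted over all 33793 probe sets. Among the 10272 with no gene symbol or several, 684 (6.66%) passed as higher and 556 (5.41%) as lower. These shares do not rest on the same adjustment as those over genes.

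The wildtype response was set beside that of Has3-deficient arteries, with which it shares no array. No gene passed for the difference of the responses (0 of 22180 with limma, 0.0%), 1802 had an unadjusted p under 0.05, and the lowest adjusted p was 0.44. Of the 809 genes that rose more than 2-fold in wildtype, 808 had a positive difference in Has3-deficient arteries, and of the 359 that fell, 357 had a negative one. The share with the same sign over all genes was not computed. The falls set side by side next were chosen by their wildtype size alone, which favours a larger value there. The 5 largest falls in wildtype can be set side by side: Klk10 was at -3.26 ± 0.33 in wildtype and -2.16 ± 0.36 in Has3-deficient arteries, Hhip at -2.84 ± 0.34 and -2.16 ± 0.36, Ptprz1 at -2.84 ± 0.29 and -1.55 ± 0.31, Omd at -2.43 ± 0.20 and -1.22 ± 0.21, and C7 at -2.15 ± 0.25 and -1.22 ± 0.27. Their adjusted p for the difference were 0.604, 0.755, 0.503, 0.44 and 0.561, so none of them was shown to be particular to wildtype arteries.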

How the data were processed

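The deposited table holds 33793 probe sets on 15 Affymetrix arrays of total RNA (100 ng each, labelled as biotin cDNA). The authors deposited values read here as log2 (the base is unstated) that, as tested on the table, have a median of 0 over the 15 arrays in every probe set. For the software, the normalization and the build, a statement is not given in the sources used here. Probe sets with exactly 1 gene symbol in the platform's annotation (23521, against 1814 with several and 8458 with none) were averaged per gene, which gave 22180 genes. limma 3.58.1 (R 4.3.3; lmFit and eBayes, 4 groups, 15 arrays) tested ligated minus non-ligated wildtype arteries with Benjamini-Hochberg adjustment over all genes, and an adjusted p under 0.05 is a call. Every adjusted p in the text is from limma, errors after ± are standard errors of its log2 differences unless stated, and the number of arrays limits the precision. On simulated data for this comparison the fit recovered 72% of changes of 0.5 and 90% of changes of 1 log2 unit, and 6.358% of its calls were false. Far fewer genes were changed in that simulation than the 27.8% called in the data, and its noise was independent between genes. Its rates therefore need not hold for the data. Genes and lists were chosen with earlier results of these data known. The rule named the 20 largest changes in each direction, the 10 lowest p in each direction, the 10 most variable genes in ligated arrays, Has1 to Has3 and, in each list, the first member and the largest changes (up to 4 in the main direction and 2 in the other), in all 415 genes. The text gives 249 of them with values and some others by name alone. It names 44 other genes, list members and microRNA genes chosen after their values were seen. The fit was repeated with each array left out, on wildtype arrays only with and without the replicate number as a block, with array weights or a robust prior, after quantile normalization or a shift to a common median, and with single probe sets in place of means. Promoters (1 per gene) were matched by symbol for 16990 genes.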

Additional observations from a re-analysis of the deposited data

Results flagged for a closer look

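In 33 cases among the 586 groups of 4 arrays checked for the genes named here with values, 1 array lay apart from the other 3 of its group by more than Dixon's limit. The same held for 12 of 148 groups of list means. Chance gives such a flag in about 1 of 20 groups. Values are log2 relative to the median over 15 arrays, with those of the other 3 arrays after "against".

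Ligated array 1 was highest of its group for Eln (0.08 against -0.43 to -0.41) and Ifi30 (2.03 against 1.82 to 1.85). Ligated array 1 was lowest of its group for Nid2 (0.84 against 0.99 to 1.01) and Nr1d1 (-1.21 against -0.46 to -0.43). Ligated array 2 was highest of its group for Notch4 (0.48 against 0.07 to 0.11), Pdgfd (-0.62 against -0.94 to -0.92), Pdgfrb (0.11 against -0.08 to -0.06) and Pi16 (-0.21 against -0.33 to -0.32). Ligated array 3 was highest of its group for Agtr1a (0.18 against -0.34 to -0.27) and Prox1 (0.22 against -0.12 to -0.09). Ligated array 3 was lowest of its group for Ackr3 (-0.42 against -0.14 to -0.13), Bhlhe40 (-0.04 against 0.47 to 0.53), Itgax (2.46 against 3.23 to 3.32), Myh9 (0.43 against 0.59 to 0.60) and Myo1f (2.60 against 2.86 to 2.91). Ligated array 4 was lowest of its group for Cd274 (1.02 against 1.44 to 1.51). Non-ligated array 1 was highest of its group for Acod1 (-0.92 against -2.07 to -1.93), Cd14 (-0.44 against -1.10 to -1.0) and Hdc (-0.92 against -1.52 to -1.47). Non-ligated array 1 was lowest of its group for Ncam1 (0 against 0.33 to 0.38) and Pdgfrb (-0.10 against 0.31 to 0.33). Non-ligated array 2 was highest of its group for Rgs16 (-0.29 against -0.54 to -0.49) and Serpinb2 (-0.60 against -1.06 to -1.01). Non-ligated array 2 was lowest of its group for Ctsg (-0.07 against 0 to 0) and Sema3a (-0.20 against -0.03 to 0). Non-ligated array 3 was highest of its group for Ackr3 (0.40 against 0.16 to 0.20), Apbb1ip (0 against -0.05 to -0.04), Cxcr2 (0 against -1.16 to -1.09), Irf7 (-0.32 against -0.59 to -0.55), Kcnn4 (-0.15 against -0.46 to -0.44) and Mthfd2 (-0.35 against -0.77 to -0.71). Non-ligated array 3 was lowest of its group for H2-Ab1 (-1.36 against -0.21 to 0). Non-ligated array 4 was lowest of its group for Ndrg2 (0 against 0.24 to 0.28).

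Among list means, the arrays that stood apart were these. Ligated array 2 was highest of its group in the mean of hyaluronan synthesis, breakdown and receptors (0.47 against 0.35 to 0.36). Ligated array 3 was highest of its group in the mean of interferon-stimulated genes (1.17 against 0.39 to 0.46). Ligated array 4 was highest of its group in the mean of integrins (-0.14 against -0.25 to -0.23), contractile smooth muscle apparatus (-0.34 against -0.73 to -0.70) and respiratory chain subunits (-0.03 against -0.20 to -0.17). Non-ligated array 1 was highest of its group in the mean of tricarboxylic acid cycle (1.04 against -0.01 to 0.15) and respiratory chain subunits (1.0 against -0.11 to 0.04). Non-ligated array 1 was lowest of its group in the mean of TGF-beta, activin and BMP (-0.06 against 0.15 to 0.19). Non-ligated array 2 was highest of its group in the mean of adventitial fibroblast genes (0.35 against 0.07 to 0.11), Schwann cell and nerve (0.57 against -0.09 to -0.04) and sympathetic neuron and ganglion (2.52 against -0.35 to -0.19). Non-ligated array 4 was lowest of its group in the mean of Toll-like receptors and adaptors (-0.36 against -0.20 to -0.18).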

How the results depend on the processing

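Every alternative left the counts of changed genes within 1.5 times those reported. Leaving out 1 wildtype array at a time gave 2553 to 2807 higher and 2793 to 3083 lower genes. The other settings gave 2758 to 3132 higher and 3128 to 3641 lower genes, the largest with array weights. Without both non-ligated array 1 and non-ligated array 2, an alternative chosen after seeing the data, the counts were 2151 and 2444. In that setting several list counts fell by more: resident-type macrophage genes from 3 to 1 lower, unfolded protein response genes from 8 to 3 higher, ADAMTS and ADAM proteases from 10 to 6, arginine, itaconate and tryptophan enzymes from 8 to 5, T and NK cell genes from 9 to 5, cholesterol genes from 5 to 1 lower, and fat genes and fatty acid oxidation genes each from 4 to 0 lower. Of the 293 genes named with values, 5 lost their call under quantile normalization, among them Cry2, Lyve1 and Nos3. Without both of those arrays 13 did, among them Acss2, Actb, Ccl11, Ccnd1, Cry2, Gzma, Hspa5, Lyve1 and Orai1. The difference of the responses gave 0 calls in every setting, with a lowest adjusted p of 0.0693 (without ligated array 4) to 0.564 (without ligated array 2) and 1416 to 2429 genes at an unadjusted p under 0.05.

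The labels number the arrays 1 to 4 in both groups. Deviations from the group means correlated at 0.028, 0.05, 0.103 and 0.164 between same-numbered arrays and at -0.208 to 0.121 between the others. Non-ligated arrays 2, 3 and 4 and ligated arrays 3 and 4 correlated best with their own number, and the other arrays did not. Correlations this weak cannot tell whether the numbers pair the samples. With the replicate number as a block in the wildtype arrays alone 2758 genes were higher and 3340 lower. The calls of 3 named genes, among them Actb and Orai1, were lost, and Cd3e and Klf2 passed. A variance trend with a filter on dim genes was not run, because the centred values hold no levels. Signal over background is lost for the same reason, so dim genes cannot be set apart. The 4 arrays in each group, unstated normalization and the mixture of cells in whole arteries limit each result.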

Other observations

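Several further gene groups changed in part, to be read against 13.2% higher and 14.6% lower among all genes. Of 22 vasoactive receptors and their regulators 5 rose and 4 fell. The serotonin receptors went apart, with Htr2b at 0.91 ± 0.10 and Htr1b at -1.09 ± 0.24. So did the regulators of G protein signalling Rgs16 (1.54 ± 0.14) and Rgs4 (-1.08 ± 0.29). Rgs16 had values of -0.54, -0.29, -0.49 and -0.51 in non-ligated and 1.20, 1.02, 0.96 and 1.16 in ligated arrays, and Rgs4 of 0, 0.47, -0.03 and 1.24 and -0.77, -1.06, -0.84 and 0.01, with no overlap between groups in either gene. The angiotensin receptor Agtr1a (-0.15 ± 0.26) did not pass. Of 20 genes of the fibroblast growth factor family 3 rose and 4 fell, among the latter the receptors Fgfr2 (-0.92 ± 0.24) and Fgfr3 (-0.67 ± 0.13). The cell surface proteoglycans split too: the syndecans Sdc1 (0.92 ± 0.07) and Sdc3 (1.66 ± 0.11) rose, and the glypicans Gpc3 (-1.08 ± 0.12) and Gpc6 (-1.12 ± 0.16) fell. The Sdc1 value is the mean of 2 probe sets with differences of 0.4 and 1.43.

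Of 19 genes of the unfolded protein response and secretion 8 rose and none fell, with Hspa5, a chaperone of the endoplasmic reticulum, at 0.46 ± 0.12 and Sdf2l1, another, at 0.82 ± 0.14. Of 18 genes of amino acid supply under Atf4 8 rose, with the mitochondrial folate enzyme Mthfd2 at 0.96 ± 0.12. Of 20 genes of glycolysis and hypoxia 11 rose, such as Pgk1, a glycolytic kinase (1.29 ± 0.35), and Egln3, an oxygen sensor (1.69 ± 0.26). Of 22 genes of antioxidants and iron handling 12 rose and 4 fell. The glutathione reductase Gsr (1.69 ± 0.14) and the iron exporter Slc40a1 (1.89 ± 0.22) rose, and the quinone reductase Nqo1 (-0.67 ± 0.09) fell. Of 15 clock genes the repressors Nr1d1 (-1.05 ± 0.19) and Cry2 (-0.81 ± 0.21) fell and Bhlhe40 (1.04 ± 0.25) rose. In that list the count of fallen genes was 2, with 5 without non-ligated array 3 or without ligated array 4, 7 with the replicate number as a block and 1 under quantile normalization.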
